A study of Mus musculus with 12 samples.

Results

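Accessible chromatin away from gene ends, where most enhancers lie, was followed here in macrophages through the regions that every library of the study detected. Peaks of all 12 deposited lists on 18 chromosomes (1 to 11 and 13 to 19) were merged where they overlapped or touched. A merged region was kept when all 12 lists had a peak in it, when it lay more than 1000 bp from both ends of every protein-coding gene in the mm10 RefSeq table, and when it lay within 100 kb of a gene span. This gave 14763 regions, which are 59.3% of the 24911 regions called in all 12 lists and 15.7% of the 93954 merged regions. They were selected on a measured value, the presence of a called peak in all 12 lists, so that presence is no result, and only their rank within each list was compared.

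The study measured chromatin accessibility by ATAC-seq in RAW264.7, a mouse macrophage cell line, made into stable lines that express the nuclear receptor Nur77 or green fluorescent protein (GFP) on addition of doxycycline. The 4 groups had 3 libraries each: Nur77 cells with LPS, Nur77 cells without LPS, GFP cells with LPS and GFP cells without LPS. All of them, the GFP cells included, had received 1 ug/ml doxycycline for 18 h. LPS, a bacterial cell wall lipid, was given at 500 ng/ml for 1 h. Any difference between the Nur77 and GFP lines cannot be told apart from other differences between 2 separately made lines. The peak lists hold no expression, so induction of Nur77 was not checked.

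Tn5 transposase cuts DNA that nucleosomes leave exposed, and ATAC-seq peaks mark promoters, enhancers and sites bound by insulator proteins. In macrophages most enhancers are held open by lineage factors such as PU.1 and C/EBP. LPS acts through Toll-like receptor 4, which activates NF-kB and AP-1, and these bind to enhancers that are open already as well as opening others. Nur77, encoded by Nr4a1, binds DNA as a monomer at the NBRE element and is known for restraining inflammatory gene expression.

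In each library a region took the highest -log10 q among its peaks, and its percentile is its rank among the 24911 regions called in all 12 lists, from 0 for the weakest to 100 for the strongest. A difference in percentile is a change of place relative to other regions of the same library. It is not a change in absolute accessibility, and near 0 and 100 it has little room. The deposited values come in steps, with 151 to 441 distinct values over the 14763 regions in a library, so weak regions share ranks. The lists held 34223 to 76238 peaks on the chromosomes used, and 20.6% to 46.4% of a list's peaks fell in the 14763 regions. The shortest list was untreated Nur77 replicate 2 and the longest was GFP LPS replicate 3. Of 4558 regions away from gene ends that 11 lists called, 2608 were missing only from untreated Nur77 replicate 2 and 941 only from GFP LPS replicate 1. The lists give no read totals, so the depth of the libraries is unknown.

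Lists of cell type markers were set against the label. All 17 macrophage identity genes had at least 1 of the regions within 50 kb, among them Csf1r, Itgam and Lyz2. Fibroblast markers had one near 3 of 8 genes, neuronal markers near 3 of 7 on the chromosomes used, T cell markers near 6 of 9, and B cell and epithelial markers near 6 of 8 each. Lists that are not cell type markers ranged from 12 of 15 Toll-like receptor signalling genes to 15 of 15 AP-1 family genes. The mean percentile of the regions had a median of 39.0 near macrophage identity genes. It was 48.7 near neuronal, 39.2 near B cell, 33.7 near epithelial, 26.4 near T cell and 23.7 near fibroblast markers. None of these contrasts was tested.

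Part of the sequence of the regions can be shown where an annotated start lies in them, because RefSeq (GRCm38.p6) gives the bases before each start. Of the 14763 regions, 1228 (8.32%) overlapped the 250 bases before an annotated start, either an internal start of a protein-coding gene (729 regions) or the start of a long non-coding RNA (572 regions), and 1460 such windows lay wholly inside a region. For 5 of them, picked after their values were seen, the sequence follows, 4 chosen because the region moved with LPS in both lines and 1 because its region was among the strongest in every library. Capitals mark matches on either strand to AP-1 (TGANTCA), C/EBP (TTGCNNAA), NF-kB, RUNX (TGTGGTT) or PU.1 and ETS (GAGGAAG) letters, and the last 4 windows are those of regions that moved.
1700113A16Rik (chr3:88177786-88178035, minus strand): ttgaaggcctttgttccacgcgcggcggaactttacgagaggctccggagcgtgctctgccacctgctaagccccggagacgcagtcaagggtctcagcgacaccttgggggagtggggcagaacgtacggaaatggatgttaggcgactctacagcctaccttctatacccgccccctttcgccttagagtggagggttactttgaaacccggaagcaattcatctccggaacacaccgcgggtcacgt
Hpn (chr7:31110998-31111247, minus strand): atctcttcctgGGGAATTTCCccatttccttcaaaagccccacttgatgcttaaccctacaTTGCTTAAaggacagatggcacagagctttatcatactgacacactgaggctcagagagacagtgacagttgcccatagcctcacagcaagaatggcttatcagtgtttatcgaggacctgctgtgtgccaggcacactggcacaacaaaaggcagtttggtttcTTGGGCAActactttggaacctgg
Gm52556 (chr2:72351672-72351921, minus strand): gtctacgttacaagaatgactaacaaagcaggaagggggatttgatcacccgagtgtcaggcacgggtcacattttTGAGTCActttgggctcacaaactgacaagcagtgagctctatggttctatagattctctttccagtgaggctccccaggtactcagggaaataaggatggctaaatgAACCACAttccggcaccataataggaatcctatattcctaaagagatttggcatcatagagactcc
Rlbp1 (chr7:79387028-79387277, minus strand): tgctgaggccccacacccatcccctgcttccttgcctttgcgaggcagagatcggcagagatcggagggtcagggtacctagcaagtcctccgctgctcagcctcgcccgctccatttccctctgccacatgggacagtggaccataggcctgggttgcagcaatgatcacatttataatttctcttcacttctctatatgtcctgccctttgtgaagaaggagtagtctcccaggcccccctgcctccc
Gm33448 (chr6:100163325-100163574, minus strand): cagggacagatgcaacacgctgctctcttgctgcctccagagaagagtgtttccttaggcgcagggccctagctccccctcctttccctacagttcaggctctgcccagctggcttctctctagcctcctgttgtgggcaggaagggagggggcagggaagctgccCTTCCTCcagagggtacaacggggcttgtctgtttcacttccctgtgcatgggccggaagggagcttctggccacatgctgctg

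The window of Hpn, which encodes the serine protease hepsin, held 1 NF-kB match and 2 C/EBP matches. The window of the long non-coding RNA Gm52556 held 1 AP-1 and 1 RUNX match, that of Gm33448 held 1 PU.1 and ETS match, and those of Rlbp1 and 1700113A16Rik held none of the 9 motifs searched. Such letters are common by themselves. AP-1 letters stood in 8.29% of the 1460 windows inside the regions and in 6.78% of all 30119 windows, C/EBP letters in 9.73% and 9.69%, and NF-kB letters in 1.78% and 1.43%. For PU.1 and ETS letters these shares were 14.5% and 10.7%, and for RUNX letters 3.36% and 4.41%. Among 65 windows in regions higher after LPS in both lines, 7 held AP-1 letters, 12 held C/EBP letters and 3 held NF-kB letters, against 5, 9 and 0 of 51 windows in regions lower in both. PU.1 and ETS letters stood in 11 and RUNX letters in 4 of those 65, against 10 and 3 of the 51. CTCF core letters stood in 2.88% of the windows inside the regions and 1.19% of all windows. The NBRE letters of Nur77 (AAAGGTCA) stood in 1.10% and 1.31%. A match is a description of letters and not a bound site.

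The 4 windows of regions that moved show the size of the LPS differences. For every difference given here and below, ± is the standard error from the limma fit described further on. It pools the spread within all 4 groups, so it is not the SD of the libraries compared. The region of Hpn had percentiles of 77.5, 67.3 and 72.9 after LPS in the Nur77 line, against 13.3, 3.9 and 12.9 untreated, and 58.4, 51.1 and 58.2 after LPS in the GFP line, against 17, 1.5 and 7.3 untreated. That of Gm52556 had 57, 63.6 and 58.4 after LPS in the Nur77 line, against 9.1, 6.6 and 9 untreated, and 59.9, 63.3 and 66.2 after LPS in the GFP line, against 18.7, 13.6 and 25.3 untreated. The region of Rlbp1, the gene of a retinaldehyde-binding protein, had 74.4, 69.9 and 75.7 after LPS in the Nur77 line, against 2.8, 3.9 and 2.9 untreated, and 67.3, 66.7 and 75.5 after LPS in the GFP line, against 5.2, 4.3 and 2.6 untreated. All 3 lay low in every untreated library and above the untreated libraries of their own line in every LPS library. The region of Gm33448 went the other way, with 43.3, 54.5 and 57.6 after LPS in the Nur77 line, against 86.9, 95.1 and 88.1 untreated, and 51.1, 47.5 and 54.2 after LPS in the GFP line, against 90.1, 83 and 89.5 untreated. The LPS difference of the Hpn region was 62.6 ± 5.8 percentile points in the Nur77 line (limma adjusted p = 7.2e-08) and 47.3 ± 5.8 in the GFP line (adjusted p = 2.9e-06), and that of the Gm33448 region was -38.2 ± 4.1 percentile points in the Nur77 line (limma adjusted p = 6.7e-07) and -36.6 ± 4.1 in the GFP line (adjusted p = 9.1e-07).

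MicroRNA genes lay inside some of the regions as well. Of the hairpins in the RefSeq table, 32 lay wholly inside 31 of the regions. Mature sequences are printed for 5 of them, picked after their values were seen, with the seed (bases 2 to 8) in capitals, because their regions were among the strongest, or moved with LPS, or hold a family with a known role.
miR-22-3p: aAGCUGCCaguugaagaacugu
miR-210-3p: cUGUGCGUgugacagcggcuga
let-7i-5p: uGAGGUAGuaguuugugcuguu
miR-3109-3p: uAGGGCCAucucauccagaua
miR-6993-5p: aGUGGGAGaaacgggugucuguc

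No seed was shared among these 5. The region over Mir22 (chr11:75457802-75463887, near Wdr81) averaged the 99.7 percentile over the 12 libraries and that over Mir210, which encodes a microRNA known for its response to low oxygen, the 97 percentile. The let-7i region averaged 68.5. The region over Mir3109, in Anxa2, had 58.7, 71.3 and 64.9 after LPS in the Nur77 line, against 37, 13.2 and 24.3 untreated, and 76.3, 70.5 and 81.7 after LPS in the GFP line, against 48.3, 38.7 and 36.2 untreated, so it was higher after LPS in both lines without overlap. The LPS difference was 40.1 ± 5.9 percentile points in the Nur77 line (limma adjusted p = 3.8e-05) and 35 ± 5.9 in the GFP line (adjusted p = 0.00015). The region over Mir6993 at Fads1, a fatty acid desaturase gene, was lower after LPS, with a difference of -22.7 ± 6.7 percentile points in the Nur77 line (limma adjusted p = 0.023) and -23.9 ± 6.7 in the GFP line (adjusted p = 0.013).

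The regions were weaker and narrower than the 9570 constant regions at gene ends. Their median width was 1441 bp (287 to 21090 bp), against 2094 bp at gene ends. The mean percentile over the 12 libraries had a median of 37.7, and the regions made up 23.7% of the strongest 10% of all constant regions and 79.1% of the weakest 10%. Of all regions away from gene ends, 19.8% were called in every list, against 63.1% of the 15172 regions at gene ends. A gene span covered 8136 of the regions (55.1%), and the other 6627 lay outside at a median of 12.3 kb (quartiles 5.16 and 28.8 kb). Chromosome 11 held the most, 1335, and chromosome 18 the fewest, 454. On both sides of the 1000 bp limit, the 478 regions over 1000 and up to 1500 bp from a gene end had a median mean percentile of 36.5 and the 498 over 500 and up to 1000 bp had 41.7. On both sides of the 100 kb limit, the 76 at 90 to 100 kb had 42.2 and the 66 at 100 to 110 kb had 40.6. The 1228 regions with an annotated start window were stronger, with a median of 59.3, against 36.1 for the other 13535.

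The regions were spread over 6904 nearest genes, of which 3559 had just 1. Genes with 5 or more numbered 604 and had 28.0% of the regions. Zmiz1, a transcriptional coactivator gene, had 21, Lpp, Gse1 and Rptor had 18 each, and Runx1, a blood lineage transcription factor gene, had 14. Regions of 1 gene could move both ways. Of the 14 at Runx1, 5 were higher and 3 lower after LPS in the Nur77 line, and 4 were higher and 3 lower in the GFP line, by the limma fit described further on. Of all 14763 regions, 11.8% were higher and 7.34% lower in the Nur77 line, and 14.9% and 8.78% in the GFP line. No gene was tested against these shares.

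The order of the regions was alike in libraries of 1 group. Over all 14763 regions, Spearman's rho was 0.881 to 0.946 (median 0.932) in the 12 pairs of libraries of the same group and 0.709 to 0.889 (median 0.812) in the 54 pairs of different groups. These correlations are across regions, which are not independent. The median region moved by 8.43 percentile points (SD over the 12 libraries). The highest SD was 43.7, in Alpk2.

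The strongest of them stayed at the top of every library. chr1:24611990-24613981, 24.1 kb from Col19a1, and chr11:3184004-3200006 in Sfi1 stood at 99.9 or above in all 12 libraries. The Sfi1 region is 1 of the 3 widest. chr3:88176527-88179205, 4.4 kb from Mef2d, covers the start of the long non-coding RNA 1700113A16Rik printed above and also stood at 99.9 or above. chr8:84065705-84069418 in Rfx1, the gene of a promoter-binding factor, stood at 99.7 to 99.9. The strongest members also included regions near Axin2, Lrif1, Lmna and Wdr81. No list of repeats or of regions prone to artefacts was used here, so none was removed on that ground.

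With all constant regions ranked together, LPS for 1 h moved the regions more often upward than downward in both lines. The test was limma on the percentiles of all 24911 constant regions with 4 group means, with Benjamini-Hochberg adjustment, and a region was called at an adjusted p under 0.05. In the Nur77 line 1739 of the 14763 regions were higher and 1084 lower after LPS (19.1%), and over all constant regions 15% were called, 8.59% higher and 6.41% lower. In the GFP line 2204 were higher and 1296 lower (23.7%), where 19.9% of all constant regions were called, 10.8% higher and 9.06% lower. Constant regions at gene ends were called less, at 8.20% in the Nur77 line and 13.1% in the GFP line, and this contrast between the 2 kinds of region was not tested. Nothing in the labels says that replicates came from separate cultures, so the p-values measure the spread between these libraries, which may be technical.

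The direction of these counts depends on what is ranked together. The median percentile of the regions, as a mean over libraries, was 38.9 ± 0.50 after LPS and 37.9 ± 0.73 untreated in the Nur77 line, and 40.0 ± 0.50 after LPS and 38.03 ± 0.29 untreated in the GFP line (SD, n = 3 each). At gene ends the same values were 68.8 after LPS and 71.0 untreated in the Nur77 line, and 66.4 after LPS and 70.5 untreated in the GFP line. When the regions were ranked among themselves alone, 1671 were higher and 1477 lower after LPS in the Nur77 line, and 1898 were higher and 1893 lower in the GFP line, so that 50.1% of the called regions were higher in the GFP line, against 63.0% in the wider ranking. Individual rises and falls below are therefore changes of place among constant regions.

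**Figure D1:**
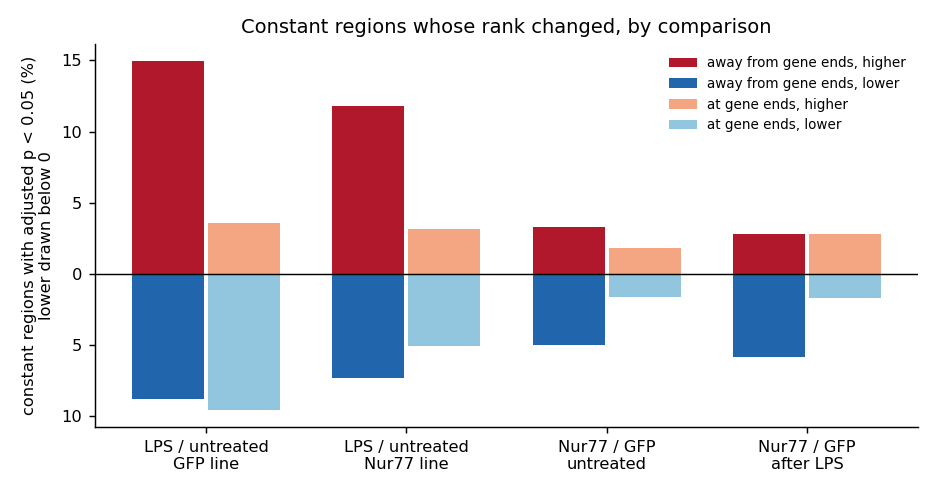
Percent of constant regions with a limma adjusted p under 0.05 in each comparison, for the 14763 regions away from gene ends (dark) and the 9570 at gene ends (light), with higher ranks above 0 and lower ranks below. In the GFP line 14.9% of the regions away from gene ends were higher after LPS and 8.78% lower, against 3.55% and 9.57% at gene ends.

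The LPS differences of the 2 lines come from separate libraries and can be set side by side. Their calls are not independent, because both use the same spread estimate per region from all 12 libraries. Of the regions higher after LPS, 1320 were called in both lines, which is 75.9% of those in the Nur77 line and 59.9% of those in the GFP line. Of the regions lower after LPS, 561 were called in both, 51.8% of those in the Nur77 line and 43.3% of those in the GFP line. No region was called in opposite directions. The median rise of the called regions was 22.6 percentile points in the Nur77 line and 22.3 in the GFP line, and the median fall was -20.3 and -19.9. Of the 25% of regions with the highest mean percentile and the 25% with the lowest, 16.3% and 3.96% were higher after LPS in the Nur77 line and 18.3% and 7.88% in the GFP line, with no test of that difference.

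**Figure D2:**
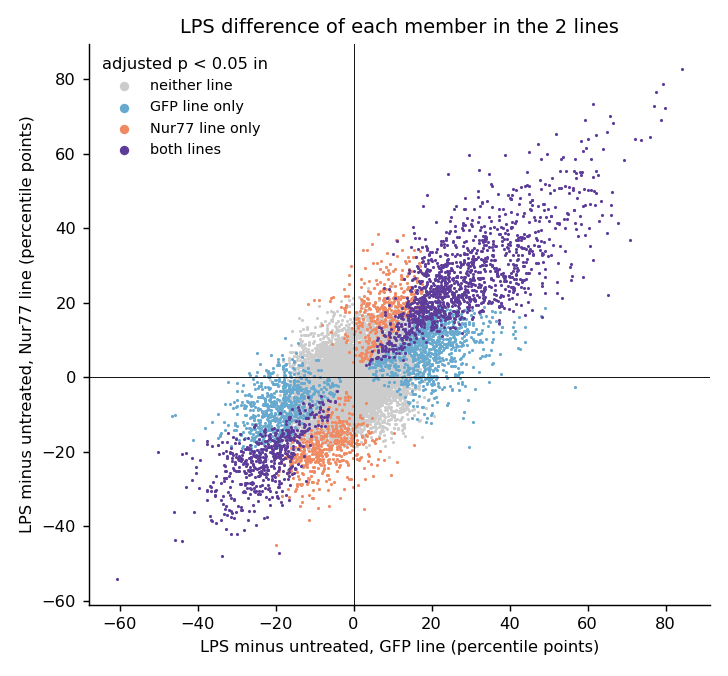
LPS minus untreated for each of the 14763 regions, GFP line on the horizontal axis and Nur77 line on the vertical axis, both in percentile points, with colour for the lines in which the region was called. The 1320 regions higher and 561 lower in both lines lie at the upper right and lower left, and the differences span -54.3 to 82.7 in the Nur77 line and -60.7 to 84.3 in the GFP line.

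Toll-like receptors and the kinases and adaptors below them receive the LPS signal. Within 50 kb of Toll-like receptor signalling genes lay 33 of the regions, of which 7 were higher and 1 lower after LPS in each line. Here and for the lists below, such counts stand beside the shares of all 14763 regions. Those shares were 11.8% higher and 7.34% lower in the Nur77 line and 14.9% and 8.78% in the GFP line. No list was tested against them. chr6:113642283-113645558 in Irak2, the gene of a kinase below Toll-like receptors, had percentiles of 91.4, 85.6 and 89.3 after LPS in the Nur77 line, against 39.2, 38.5 and 28.4 untreated, and 77.1, 89.9 and 90 after LPS in the GFP line, against 38.2, 24.6 and 41.9 untreated. The groups did not overlap, and the difference was 53.4 ± 5.1 percentile points in the Nur77 line (limma adjusted p = 1.2e-07) and 50.8 ± 5.1 in the GFP line (adjusted p = 1.9e-07). A second Irak2 region, chr6:113659789-113663980, was also higher, by 39.5 ± 5.3 percentile points in the Nur77 line (limma adjusted p = 1.3e-05) and 39.2 ± 5.3 in the GFP line (adjusted p = 1.1e-05). Cd14, the LPS co-receptor gene, was not on this list but on that of macrophage identity genes. Near it, chr18:36713044-36714263, 10.8 kb away, had 23.5, 31.5 and 34.9 after LPS in the Nur77 line, against 0.1, 6.6 and 1.1 untreated, and 26.8, 43.6 and 39.7 after LPS in the GFP line, against 18.7, 7.5 and 20.6 untreated. Its difference was 27.4 ± 5.7 percentile points in the Nur77 line (limma adjusted p = 0.0017) and 21.1 ± 5.7 in the GFP line (adjusted p = 0.011), and the call in the GFP line was lost without GFP untreated replicate 2 or GFP LPS replicate 2.

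NF-kB signalling and feedback genes had 53 of the regions within 50 kb, of which 12 were higher and 3 lower after LPS in the Nur77 line, and 12 higher and 4 lower in the GFP line. chr10:19008550-19010045 lies in Tnfaip3, which encodes A20, an inhibitor of NF-kB signalling. It had percentiles of 62.5, 71.3 and 71.8 after LPS in the Nur77 line, against 6.7, 6.6 and 7.3 untreated, and 53.1, 68.3 and 67.3 after LPS in the GFP line, against 4.1, 4.3 and 1.6 untreated. It stood at 7.3 or below in every untreated library and at 53.1 or above in every LPS library, with a difference of 61.6 ± 5.7 percentile points in the Nur77 line (limma adjusted p = 6.3e-08) and 59.5 ± 5.7 in the GFP line (adjusted p = 8.7e-08). chr2:34956937-34959340 in Traf1, an adaptor gene of TNF receptors, had 88.6, 89.3 and 85.3 after LPS in the Nur77 line, against 41.3, 55.2 and 42.5 untreated, and 76.3, 86.3 and 81.7 after LPS in the GFP line, against 22, 7.5 and 11.5 untreated. Its difference was 41.4 ± 5.1 percentile points in the Nur77 line (limma adjusted p = 3.8e-06) and 67.8 ± 5.1 in the GFP line (adjusted p = 3.1e-09), and the untreated libraries of the Nur77 line stood above those of the GFP line (adjusted p = 0.00023).

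The largest fall after LPS among the regions also lay near this list. chr11:54883994-54885769, 13.5 kb from Hint1 and 25 kb from Tnip1, the gene of an A20-binding protein, had percentiles of 6.3, 11.4 and 1.9 after LPS in the Nur77 line, against 68.8, 65.2 and 48.4 untreated, and 20.9, 18.7 and 9.3 after LPS in the GFP line, against 78.6, 75.9 and 76.4 untreated. No LPS library reached an untreated one, and the difference was -54.3 ± 6.0 percentile points in the Nur77 line (limma adjusted p = 8.3e-07) and -60.7 ± 6.0 in the GFP line (adjusted p = 1.4e-07).

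Cytokine and chemokine genes had the highest share of rises of the 16 lists. Of 54 regions within 50 kb of them, 27 were higher and 1 lower after LPS in the Nur77 line, and 24 were higher and 0 lower in the GFP line. Their median difference was 9.18 and 10.4 percentile points. Over all 14763 regions it was -0.05 and 0.33, and over all constant regions, gene ends included, -0.65 and -1.05. chr11:83531581-83535740, 1.1 kb from the chemokine gene Ccl5, had percentiles of 91.5, 91.7 and 90.9 after LPS in the Nur77 line, against 14.6, 28.6 and 23.2 untreated, and 88.4, 95.1 and 95.1 after LPS in the GFP line, against 18.7, 16.3 and 7.3 untreated. chr11:78886490-78887783, 33.0 kb from Nos2, the inducible nitric oxide synthase gene, had 70.9, 73.4 and 72.9 after LPS in the Nur77 line, against 17.5, 13.2 and 10.9 untreated, and 59.9, 71.1 and 63.1 after LPS in the GFP line, against 17, 25.8 and 7.3 untreated. Both stood at 28.6 or below in every untreated library and at 59.9 or above in every LPS library. The difference at Ccl5 was 69.2 ± 4.9 percentile points in the Nur77 line (limma adjusted p = 2e-09) and 78.8 ± 4.9 in the GFP line (adjusted p = 2.7e-10). At Nos2 it was 58.6 ± 5.7 percentile points in the Nur77 line (limma adjusted p = 1.3e-07) and 48 ± 5.7 in the GFP line (adjusted p = 1.6e-06). chr2:129319447-129321238, 9.3 kb from Il1a, was higher by 45.2 ± 5.0 percentile points in the Nur77 line (limma adjusted p = 9.8e-07) and 45.2 ± 5.0 in the GFP line (adjusted p = 7.5e-07).

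AP-1 family genes had 66 regions within 50 kb, of which 11 were higher and 3 lower after LPS in the Nur77 line, and 16 higher and 6 lower in the GFP line. chr4:32390861-32391832 in Bach2, a repressor gene of this family, had percentiles of 82.7, 79 and 79.2 after LPS in the Nur77 line, against 27.4, 36.3 and 17.1 untreated, and 66, 56.1 and 76.5 after LPS in the GFP line, against 10.5, 9.9 and 7.3 untreated. Every LPS library was above every untreated one. chr5:32195424-32196859, 37.6 kb from Fosl2, was higher by 58.6 ± 5.3 percentile points in the Nur77 line (limma adjusted p = 5e-08) and 56.8 ± 5.3 in the GFP line (adjusted p = 7.1e-08). chr1:191192036-191194983, 8.7 kb from Atf3, a stress-induced factor gene, rose by 43.8 ± 3.6 percentile points in the Nur77 line (limma adjusted p = 1.4e-08) and 38.9 ± 3.6 in the GFP line (adjusted p = 7.2e-08). Not all moved up. chr5:139780333-139782245, 9.3 kb from Mafk, a small Maf gene, had a difference of -18.6 ± 5.5 percentile points in the Nur77 line (limma adjusted p = 0.023) and -22.8 ± 5.5 in the GFP line (adjusted p = 0.0046), and the call in the Nur77 line was lost without untreated Nur77 replicate 1 or 3 or Nur77 LPS replicate 3.

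Immediate early and MAPK feedback genes had 52 regions, 10 higher and 1 lower in the Nur77 line and 15 higher and 3 lower in the GFP line. chr1:134082611-134084184, 3.5 kb from Btg2, an antiproliferative immediate early gene, had 38.4, 38.2 and 39 after LPS in the Nur77 line, against 9.1, 13.2 and 14 untreated, and 59.9, 47.5 and 41.7 after LPS in the GFP line, against 4.1, 9.9 and 11.5 untreated. LPS and untreated libraries did not overlap in either line, with a difference of 26.4 ± 5.7 percentile points in the Nur77 line (limma adjusted p = 0.0021) and 41.2 ± 5.7 in the GFP line (adjusted p = 1.3e-05).

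**Figure D3:**
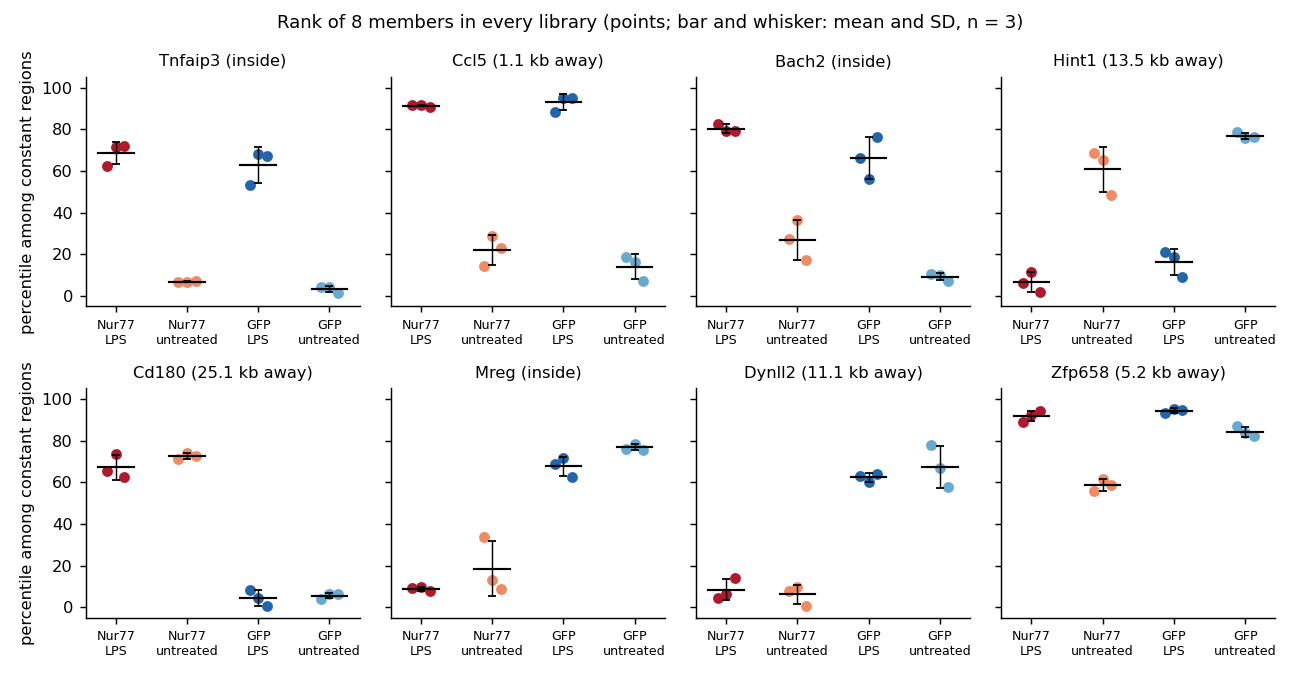
Percentile of 8 regions in each of the 12 libraries (points), with the mean and SD of 3 libraries (bar and whisker), named by the nearest gene, with Nur77 groups left of GFP groups and LPS left of untreated. Tnfaip3, Ccl5 and Bach2 regions were higher and the Hint1 region lower after LPS in both lines, the Cd180 region was higher and the Mreg and Dynll2 regions lower in Nur77 cells with and without LPS, and the Zfp658 region had a group mean of 58.8 in untreated Nur77 cells and 84.2 to 94.3 in the other 3 groups.

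Macrophage lineage factor genes had regions that moved both ways: 15 of 75 were higher and 9 lower after LPS in each line. chr6:108687301-108689181, 20.4 kb from Bhlhe40, a helix-loop-helix repressor gene, had percentiles of 70.5, 77.8 and 74.4 after LPS in the Nur77 line, against 29.9, 46.8 and 29.3 untreated, and 80.3, 77.9 and 77 after LPS in the GFP line, against 9, 16.3 and 14.8 untreated. The difference was 38.9 ± 5.3 percentile points in the Nur77 line (limma adjusted p = 1.6e-05) and 65.1 ± 5.3 in the GFP line (adjusted p = 1.2e-08). Near Cebpa, the gene of a C/EBP factor, the 2 directions stood side by side. chr7:35162930-35164279, 41.0 kb away, rose by 50.2 ± 5.1 percentile points in the Nur77 line (limma adjusted p = 2.5e-07) and 61 ± 5.1 in the GFP line (adjusted p = 1.4e-08), and chr7:35097925-35099441, 19.9 kb away, had a difference of -32.1 ± 5.9 percentile points in the Nur77 line (limma adjusted p = 0.00048) and -22.5 ± 5.9 in the GFP line (adjusted p = 0.0082), where the call in the GFP line was lost without GFP untreated replicate 3. chr13:83608530-83610061 in Mef2c, a MADS box factor gene, had 18.1, 8 and 19 after LPS in the Nur77 line, against 46.1, 48.6 and 49 untreated, and 5.2, 14.9 and 11.7 after LPS in the GFP line, against 48.3, 35.4 and 49.9 untreated. It was lower after LPS in both lines, with a difference of -32.9 ± 5.8 percentile points in the Nur77 line (limma adjusted p = 0.00031) and -33.9 ± 5.8 in the GFP line (adjusted p = 0.00017).

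Near macrophage identity genes 5 regions were higher and 3 lower of 64 in the Nur77 line, where 8.59% and 6.41% of all constant regions were, and 5 were higher and 7 lower in the GFP line, where 10.8% and 9.06% were. These counts are near those shares or below them. The region near Cd14 described above was among the higher ones in both lines. chr3:95529509-95530387 in Ctss, the cathepsin S gene, had a difference of -25.1 ± 6.3 percentile points in the Nur77 line (limma adjusted p = 0.0074) and -30.2 ± 6.3 in the GFP line (adjusted p = 0.0012), and the call in the Nur77 line was lost without Nur77 LPS replicate 2. Near interferon response genes 4 of 48 were higher and 7 lower in the Nur77 line, and 5 higher and 9 lower in the GFP line. chr8:46885638-46886847, 38.2 kb from Irf2, an interferon regulatory factor gene, was lower, with a difference of -28.8 ± 5.5 percentile points in the Nur77 line (limma adjusted p = 0.00077) and -26.1 ± 5.5 in the GFP line (adjusted p = 0.0015).

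Lipid and energy metabolism genes had more falls than rises, 16 lower and 4 higher of 75 in the Nur77 line and 16 lower and 10 higher in the GFP line. chr7:80078048-80079927 in Zfp710, 14.9 kb from Idh2, a mitochondrial isocitrate dehydrogenase gene, had percentiles of 33.8, 52.1 and 40.3 after LPS in the Nur77 line, against 74.1, 88.4 and 62.3 untreated, and 46.9, 40.9 and 28.2 after LPS in the GFP line, against 70.2, 72.1 and 65.5 untreated. The difference was -32.9 ± 6.2 percentile points in the Nur77 line (limma adjusted p = 0.00063) and -30.6 ± 6.2 in the GFP line (adjusted p = 0.00098). Against this direction, chr19:3359363-3360770 in Cpt1a, which imports fatty acids into mitochondria, rose by 47.7 ± 6.1 percentile points in the Nur77 line (limma adjusted p = 7.3e-06) and 45.7 ± 6.1 in the GFP line (adjusted p = 1e-05). Of 58 regions near nuclear receptor genes, 3 were higher and 6 lower in the Nur77 line and 3 higher and 7 lower in the GFP line. Chromatin architecture and housekeeping genes had 4 higher and 0 lower of 44 in the Nur77 line and 2 higher and 2 lower in the GFP line. Near the markers of the 5 other cell types 0 regions were higher in the Nur77 line and 2 each were lower near B cell and neuronal markers, and in the GFP line each list had 0 or 1 higher and 1 or 2 lower.

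**Figure D4:**
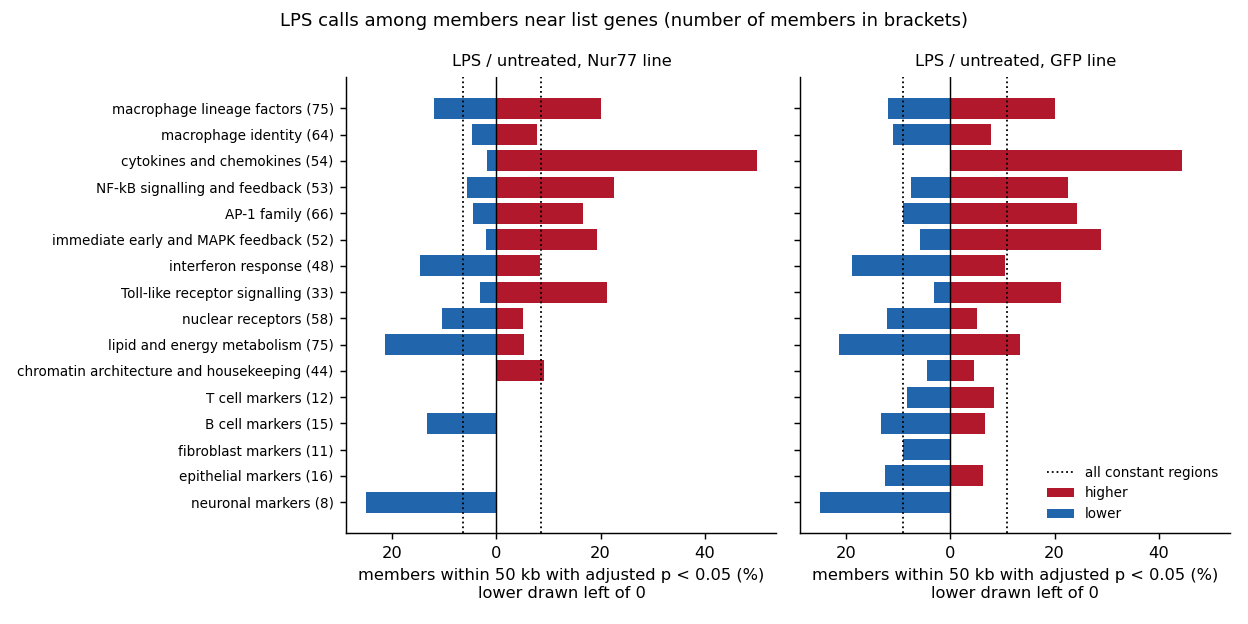
Percent of the regions within 50 kb of each list's genes that were higher (right of 0) or lower (left of 0) after LPS, Nur77 line in the left panel and GFP line in the right panel, with the number of regions in brackets and the share over all constant regions as dotted lines. Cytokine and chemokine genes reach furthest right, with 27 of 54 in the Nur77 line and 24 of 54 in the GFP line, and the 5 lists of other cell types hold 8 to 16 regions each.

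Other large rises lay outside the lists. chr18:65327811-65329684 in Alpk2, an alpha kinase gene, had the largest, with 93.4, 94.2 and 92.3 after LPS in the Nur77 line, against 7.9, 13.2 and 10.9 untreated, and 96.1, 95.8 and 96.6 after LPS in the GFP line, against 13.8, 16.3 and 5.5 untreated. The difference was 82.7 ± 4.7 percentile points in the Nur77 line (limma adjusted p = 1.5e-10) and 84.3 ± 4.7 in the GFP line (adjusted p = 1e-10). chr4:145282941-145284469 in Tnfrsf8, which encodes the receptor CD30, had 84.8, 84.3 and 83.2 after LPS in the Nur77 line, against 9.1, 3.9 and 9 untreated, and 72.2, 79.2 and 81.5 after LPS in the GFP line, against 0.2, 0.2 and 0 untreated. chr4:150836692-150838372, 15.4 kb from Errfi1, a feedback inhibitor of EGF receptor signalling, had 86.3, 85.5 and 84.2 after LPS in the Nur77 line, against 9.1, 9.8 and 0.8 untreated, and 78, 82.3 and 82 after LPS in the GFP line, against 3.1, 1 and 0.4 untreated. These 3 had the highest SD over the libraries and stood at 16.3 or below in every untreated library. chr2:102871810-102878164 in Cd44, the hyaluronan receptor gene, rose by 72.7 ± 5.1 percentile points in the Nur77 line (limma adjusted p = 2e-09) and 77 ± 5.1 in the GFP line (adjusted p = 4e-10). chr16:11017618-11018860, 24.5 kb from Litaf, the gene of an LPS-induced factor, rose by 73.5 ± 5.2 percentile points in the Nur77 line (limma adjusted p = 2e-09) and 61.5 ± 5.2 in the GFP line (adjusted p = 1.7e-08).

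Fewer of the regions differed between the Nur77 and GFP lines than between LPS and untreated cells. In untreated cells 483 were higher and 742 lower in the Nur77 line (8.30%), where 6.56% of all constant regions were called, 2.7% higher and 3.86% lower. After LPS 408 were higher and 861 lower (8.60%), where 7.2% of all constant regions were called, 2.79% higher and 4.41% lower. Ranked among themselves, 611 were higher and 715 lower after LPS, so that 46.1% of the called regions were higher, against 32.2% in the wider ranking, and 662 were higher and 861 lower untreated. The comparisons with and without LPS use different libraries but the same spread estimate per region, so their calls are not independent. Called in both were 140 higher regions, 29.0% of those untreated and 34.3% of those after LPS, and 357 lower regions, 48.1% and 41.5%, and 1 region was higher untreated and lower after LPS. The count in untreated cells was 756 in place of 1225 without GFP untreated replicate 2 and 785 without GFP untreated replicate 3. After LPS it was 687, 840 and 774 in place of 1269 without Nur77 LPS replicates 1, 2 and 3. Regions outside gene spans were lower in Nur77 cells in 5.96% untreated and higher in 2.69%, and those inside spans in 4.27% and 3.75%.

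The largest rise in Nur77 cells lay 25.1 kb from Cd180, which encodes a Toll-like receptor homologue that restrains LPS signalling. chr13:102663349-102668476 had percentiles of 71.3, 74 and 72.6 in untreated Nur77 cells, against 4.1, 6.3 and 6.4 in untreated GFP cells, and 65.6, 73.8 and 62.3 in Nur77 cells after LPS, against 8.1, 4.7 and 0.6 in GFP cells after LPS. The 6 Nur77 libraries stood at 62.3 or above and the 6 GFP libraries at 8.1 or below. The difference was 67 ± 5.4 percentile points untreated (limma adjusted p = 5.5e-08) and 62.8 ± 5.4 after LPS (adjusted p = 3.5e-07). chr5:118066433-118068600 in Fbxw8, a ubiquitin ligase subunit gene, was higher by 56.8 ± 5.4 percentile points untreated (limma adjusted p = 5.3e-07) and 53.6 ± 5.4 after LPS (adjusted p = 1.1e-06). chr2:168524441-168526123 in Nfatc2, a calcium-regulated transcription factor gene, was higher by 50.3 ± 5.6 percentile points untreated (limma adjusted p = 3.8e-06) and 49.1 ± 5.6 after LPS (adjusted p = 6.6e-06). Regions in Arid1a and near Chd3 were higher too. chr4:133729212-133730585 in Arid1a, a BAF subunit gene, had a difference of 50.4 ± 6.3 percentile points untreated (limma adjusted p = 1.7e-05) and 50.4 ± 6.3 after LPS (adjusted p = 1.7e-05), and chr11:69339940-69341529, 1.7 kb from Chd3, a NuRD subunit gene, of 50.3 ± 5.5 percentile points untreated (limma adjusted p = 3.6e-06) and 46.6 ± 5.5 after LPS (adjusted p = 8.7e-06).

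Falls in Nur77 cells were as large. chr1:72182621-72184403 in Mreg, the melanoregulin gene, had percentiles of 33.5, 13.2 and 9 in untreated Nur77 cells, against 76.2, 78.4 and 75.7 in untreated GFP cells, and 9.2, 9.6 and 7.7 in Nur77 cells after LPS, against 68.6, 71.8 and 62.7 in GFP cells after LPS. chr11:88014890-88016242, 11.1 kb from Dynll2, a dynein light chain gene, had 7.9, 9.8 and 0.8 in untreated Nur77 cells, against 77.9, 66.8 and 57.7 in untreated GFP cells, and 4.6, 6.6 and 14 in Nur77 cells after LPS, against 63.1, 59.9 and 63.9 in GFP cells after LPS. Nur77 and GFP libraries did not overlap at either. The differences were -58.2 ± 5.9 percentile points untreated (limma adjusted p = 1.3e-06) and -58.8 ± 5.9 after LPS (adjusted p = 1.2e-06) at Mreg. At Dynll2 they were -61.4 ± 5.9 percentile points untreated (limma adjusted p = 5.3e-07) and -53.9 ± 5.9 after LPS (adjusted p = 3.7e-06). chr4:57836621-57838138 in Pakap was lower, with a difference of -61.6 ± 6.1 percentile points untreated (limma adjusted p = 7.1e-07) and -65.6 ± 6.1 after LPS (adjusted p = 5.7e-07), and chr4:54979815-54980968 in Zfp462, a zinc finger gene, with one of -53 ± 6.0 percentile points untreated (limma adjusted p = 4.8e-06) and -69.6 ± 6.0 after LPS (adjusted p = 3.5e-07).

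Counts near the gene lists are read against the shares over all constant regions, 2.7% higher and 3.86% lower untreated and 2.79% higher and 4.41% lower after LPS. Over the 14763 regions alone the shares were 3.27% higher and 5.03% lower untreated and 2.76% higher and 5.83% lower after LPS. Near nuclear receptor genes 3 of 58 were higher and 2 lower untreated, and 2 higher and 2 lower after LPS. chr17:28216994-28218778 in Def6, 14.0 kb from Ppard, the gene of a fatty acid sensing receptor, had percentiles of 61.9, 53.7 and 49.6 in untreated Nur77 cells, against 9, 12.3 and 23 in untreated GFP cells, and 65.2, 60.7 and 63.7 in Nur77 cells after LPS, against 11.1, 22.4 and 22.8 in GFP cells after LPS. It was higher by 40.3 ± 5.8 percentile points untreated (limma adjusted p = 9.9e-05) and 44.4 ± 5.8 after LPS (adjusted p = 3.1e-05). chr2:27713975-27717360 in Rxra, the gene of a retinoid receptor that pairs with Nur77, had differences of -32.2 ± 5.8 percentile points untreated (limma adjusted p = 0.00096) and -11.4 ± 5.8 after LPS (adjusted p = 0.26). Near Nr4a1 itself 2 regions were called in a comparison. chr15:101240555-101242400, 11.5 kb from Nr4a1, had 78.1, 76.6 and 69.8 in untreated Nur77 cells, against 85.9, 82.2 and 81.6 in untreated GFP cells, and 67.1, 71.3 and 74.4 in Nur77 cells after LPS, against 85, 82 and 80.6 in GFP cells after LPS. It was lower after LPS in Nur77 cells than in GFP cells, with a difference of -11.6 ± 3.1 (limma adjusted p = 0.022), a call lost without any 1 of GFP LPS replicates 1 and 2 and Nur77 LPS replicates 1 and 2. chr15:101316994-101318856, 42.2 kb from Nr4a1, was lower after LPS, with a difference of -20.3 ± 6.0 percentile points in the Nur77 line (limma adjusted p = 0.023) and -31.1 ± 6.0 in the GFP line (adjusted p = 0.00059), and the call in the Nur77 line was lost without untreated Nur77 replicate 1 or 3 or Nur77 LPS replicate 3.

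Other lists had the following counts in Nur77 against GFP cells, untreated and then after LPS, beside the same shares. Cytokine and chemokine genes had 0 higher and 5 lower of 54, then 1 and 5. Lipid and energy metabolism genes had 6 higher and 0 lower of 75, then 2 and 3. AP-1 family genes had 1 higher and 3 lower of 66, then 2 and 4. chr1:191118683-191120947, 9.7 kb from Batf3, an AP-1 family gene, was among the lower ones untreated, with 13.3, 13.2 and 17.1 in Nur77 cells, against 52.9, 57 and 41 in GFP cells, a difference of -35.8 ± 5.9 (limma adjusted p = 0.00045). Macrophage identity genes had 2 higher and 5 lower of 64, then 0 and 5. Lineage factor genes had 3 higher and 4 lower of 75, then 4 and 1. NF-kB genes had 2 higher and 3 lower of 53, then 3 and 0, and immediate early genes 4 and 4 of 52, then 4 and 2. The interferon response list had 0 higher and 0 lower of 48, then 1 and 0. The lists of Toll-like receptor signalling and of chromatin architecture had at most 1 in either direction. Among markers of other cell types, T cell markers had 1 higher and 1 lower of 12, then 1 and 1, and B cell markers 2 and 1 of 15, then 0 and 1. Fibroblast markers had 0 and 0 of 11, then 0 and 0, epithelial markers 1 and 0 of 16, then 1 and 0, and neuronal markers 0 and 1 of 8, then 1 and 1.

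Among regions over transfer RNA genes, those that differed between the lines were lower in Nur77 cells, with 1 exception. This grouping was chosen after the values were seen, so its counts are a description. Transfer RNA genes are transcribed by RNA polymerase III, and 166 of them lay under 94 of the regions, 38 of these on chromosome 13. Of the 94, 20 were lower and 0 higher in untreated Nur77 cells (21.3% lower, against 3.86% of all constant regions and 5.03% of the 14763 regions). After LPS 16 were lower and 1 higher (17.0% lower, against 4.41% and 5.83%). Their median difference was -7.06 percentile points untreated and -4.31 after LPS. Over all constant regions it was 0.15 and 0.39, and over the 14763 regions 0.19 and -0.34. In untreated cells 87 of the 94 had a lower mean in the Nur77 line (92.6%, against 48.8% of all 14763 regions), and after LPS 70 did (74.5%, against 52.4%). After LPS 2 of the 94 were higher and 1 lower in the Nur77 line (2.13% and 1.06%), against 11.8% and 7.34% of the 14763 regions. In the GFP line 0 were higher and 1 lower (1.06%), against 14.9% and 8.78%.

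The median percentile of the 94 regions was 58.4, 63.3 and 64.6 in Nur77 LPS libraries and 61.6, 61.1 and 62.5 in untreated Nur77 libraries, against 68.0, 73.7 and 71.4 in GFP LPS libraries and 73.3, 72.4 and 71.5 in untreated GFP libraries. No Nur77 library reached a GFP library. On chromosome 13, 8 of 38 were lower untreated and 7 after LPS, and on the other chromosomes 12 of 56 and 9 of 56. Of 171 other regions within 100 kb of these 94, 11 (6.43%) were lower untreated and 10 (5.85%) after LPS, with a median difference of 0.48 and -1.26. Over the 567 other regions of chromosome 13, 4.41% were lower untreated. At gene ends, 2 of 44 constant regions over transfer RNA genes were lower untreated and 1 after LPS. Those had a median mean percentile of 90.1, against 68.2 for the 94. Without Nur77 LPS replicate 1 the count of lower regions after LPS was 8.

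chr3:96401535-96403646, which holds the asparagine transfer RNA gene n-TNgtt10 and lies 30.1 kb from BC107364, had percentiles of 2.8, 2 and 2.9 in untreated Nur77 cells, against 69.7, 70.1 and 68.1 in untreated GFP cells, and 2.5, 1.7 and 4.9 in Nur77 cells after LPS, against 55, 59 and 58.2 in GFP cells after LPS. chr13:23411976-23413909, which holds n-TVcac2 and 2 other transfer RNA genes near Abt1, had 20.3, 19.6 and 25.4 in untreated Nur77 cells, against 74.3, 68.3 and 65.9 in untreated GFP cells, and 25.7, 14.9 and 15.7 in Nur77 cells after LPS, against 75.3, 62.5 and 71.5 in GFP cells after LPS. In both the lines were far apart. LPS and untreated libraries of a line overlapped, except at n-TNgtt10 in the GFP line. There every LPS library was lower, with a difference of -11.9 ± 5.2 percentile points (limma adjusted p = 0.11). The first differed by -66.7 ± 5.2 percentile points untreated (limma adjusted p = 5.1e-08) and -54.3 ± 5.2 after LPS (adjusted p = 6.1e-07). The second differed by -47.8 ± 5.4 percentile points untreated (limma adjusted p = 4.8e-06) and -51 ± 5.4 after LPS (adjusted p = 2.7e-06). Transfer RNA genes exist in near-identical copies, so the placing of reads among copies is uncertain, and the aligner is not given in the sources used here. Over small nuclear RNA genes 0 regions were higher and 2 lower of 37 untreated (5.41% lower), and 2 were higher and 2 lower after LPS (5.41% each). Over small nucleolar RNA genes 0 were higher and 1 lower of 14 untreated and 0 and 0 after LPS, and over microRNA genes 2 and 0 of 38 untreated and 1 and 1 after LPS. The shares over all constant regions were 2.7% higher and 3.86% lower untreated and 2.79% and 4.41% after LPS. Over the 14763 regions they were 3.27% and 5.03% untreated and 2.76% and 5.83% after LPS.

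**Figure D5:**
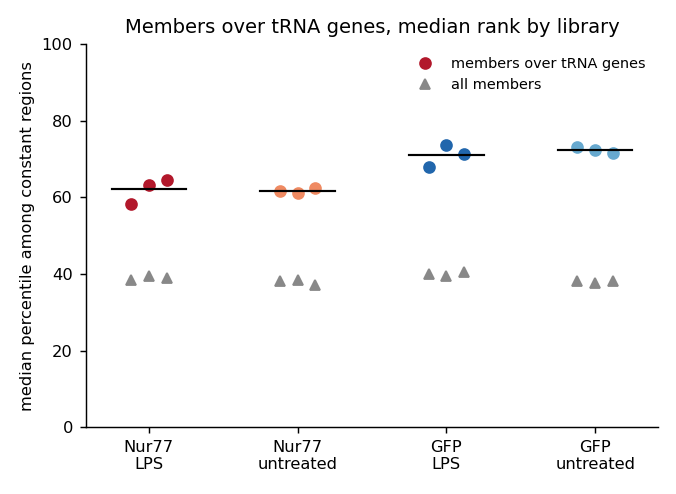
Median percentile in each library of the 94 regions over transfer RNA genes (circles, with a bar for the mean of 3 libraries) and of all 14763 regions (grey triangles). The circles lie at 58.4 to 64.6 in the 6 Nur77 libraries and at 68.0 to 73.7 in the 6 GFP libraries, and the triangles at 37.1 to 40.4 in all 12.

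The LPS response itself was compared between the lines by an interaction term in the same fit. It called 1 of the 14763 regions, and 0.00401% of all constant regions, with 1368 of the 14763 at an unadjusted p under 0.05. chr7:43552757-43557015, 5.2 kb from Zfp658, a zinc finger gene, had percentiles of 89.1, 92.3 and 94.1 after LPS in the Nur77 line, against 55.8, 61.7 and 58.9 untreated, and 93, 95 and 94.9 after LPS in the GFP line, against 86.9, 83.4 and 82.3 untreated. Untreated Nur77 cells stood apart from the other 3 groups. The LPS difference was 33.1 ± 2.5 percentile points in the Nur77 line (limma adjusted p = 3e-09) and 10.1 ± 2.5 in the GFP line (adjusted p = 0.0047), and the difference between the responses was 23 ± 3.5 (limma adjusted p = 0.022). The call was lost on normal scores of the ranks, when a list had to cover 50% of the region, and on leaving out any 1 library of the GFP groups or of Nur77 LPS. It held without any 1 of the untreated Nur77 libraries. A p above the threshold does not show that the lines respond alike.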

How the data were processed

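ATAC-seq peak lists of 12 libraries were used, 3 in each of 4 groups. Per the labels, Tn5 acted on the nuclei at 37 C for 45 min, and the library was limited to fragments below 700 bp. Per the submitters' processing notes, cutadapt 2.6, DiffBind 3.0.15 and the mm10 build were used. Neither aligner nor peak caller is given in the sources used here. The deposited peak names record a mapping quality of 20 and a q value of 0.001. Each deposited list gives a score, a fold enrichment (a ratio), a -log10 p and a -log10 q per peak, all the authors' own values, with peaks called per library. These were only ranked within a list. The lists hold no read totals, so intervals from counts were not possible.

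Peaks were merged over the 12 lists, and each region took its highest -log10 q per library, ranked as a percentile among 24911 regions called in all 12. Fold enrichment orders the peaks of a list exactly as q does, so ranking by it gave identical counts. Percentiles were fitted in limma 3.58.1 (R 4.3.3) with 4 group means, trended and robust variance, and Benjamini-Hochberg adjustment over all 24911 regions at 0.05, two-sided, for 5 comparisons. The fit was also run on simulated ranks with known shifts, drawn independently for each region and without ties. That run cannot show how often calls on the real ranks are false. An exact test of 3 against 3 libraries cannot go below p = 0.1 for a single region. Gene annotation and sequences came from RefSeq tables (Python 3.11.15, pandas 2.3.3). Chromosome 12 was not used.

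Gene lists were 16 sets of 232 genes, matched to regions within 50 kb. Named regions were the 10 strongest, the 5 largest called rises and falls per comparison, the strongest and up to 3 called rises and falls per list and comparison, the 3 widest, and the 3 with the lowest and highest SD. Regions shown for a start window, a microRNA or a transfer RNA gene fall outside that rule and were picked after their values were seen. The regions and lists were chosen with earlier results of these data known. Alternatives covered the ranked value, the scale, the regions ranked together, list length, the q threshold, a replicate block, the libraries fitted, the overlap, the distance from gene ends and each library left out.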

Additional observations from a re-analysis of the deposited data

Results flagged for a closer look

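The region near Zfp658 was picked out because its LPS response differed between the lines by a test of the difference itself. The response in the Nur77 line minus that in the GFP line was 22.98 percentile points, the 1 call among the 14763 regions by limma with Benjamini-Hochberg adjustment. Untreated Nur77 libraries stood at 55.8, 61.7 and 58.9, against 86.9, 83.4 and 82.3 in untreated GFP libraries. The call was lost on normal scores of the ranks, when a list had to cover 50% of the region, and without any 1 library of the GFP groups or of Nur77 LPS. The cause was not tested. Groups of 3 libraries were too small to look for a single library far from the others.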

How the results depend on the processing

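When a list had to cover 50% of the region, 5047 regions remained in the set, and the calls were 859 for LPS in the Nur77 line, 1151 for LPS in the GFP line, 248 for Nur77 against GFP untreated, 330 after LPS and 0 for the difference of responses. As shares of the regions these are 17.0%, 22.8%, 4.91% and 6.54%, against 19.1%, 23.7%, 8.30% and 8.60%. The group medians were then 37.19 (Nur77 LPS), 35.24 (Nur77 untreated), 39.13 (GFP LPS) and 35.56 (GFP untreated). Of the 50 transfer RNA regions that remained, 5 were lower in Nur77 cells untreated and 4 after LPS, against 20 and 16 of 94. With lists of equal length the medians were 38.4, 36.81, 40.8 and 37.55 in the same order, and with a -log10 q of at least 5 the GFP LPS median was 40.71.

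Leaving out 1 library at a time gave 14806 to 17377 regions. The calls ranged from 2000 to 2994 for LPS in the Nur77 line and from 2665 to 3941 in the GFP line, from 756 to 1334 for Nur77 against GFP untreated, from 687 to 1617 after LPS, and from 0 to 6 for the difference of responses. Untreated, the count was 756 without GFP untreated replicate 2 and 785 without replicate 3. After LPS it was 687, 840 and 774 without Nur77 LPS replicates 1, 2 and 3.

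The difference of responses had 0 calls on normal scores, 10 when the regions were ranked among themselves, 2 with lists of equal length and 4 with list length as a covariate. With the replicate block it had 0, and the block gave 2763 and 3470 calls for LPS in the Nur77 and GFP lines and 1183 and 1200 for Nur77 against GFP untreated and after LPS. Same-numbered libraries showed little shared deviation from their group means, with 2 of 18 pairs over a correlation of 0.1 (-0.18 to 0.16). The labels do not say whether the numbers pair the libraries, and with 3 libraries per group these correlations cannot settle it. The Zfp658 difference in percentile points was 22.98 with the block, where its call was lost, 32.72 with 50% of the region covered and 21.49 to 24.42 with 1 library left out. On the separate scale of normal scores it was 0.61, which cannot be compared with percentile points.

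Over 347 values of named regions, 7240 recomputed values included 6551 that kept direction and call, 689 that lost the call and 0 that reversed. The cause of these shifts was not tested. A scan of region centres for motifs was not run, since no genome was used here, and a fit of 6 libraries cannot give the difference of responses. The transfer RNA counts were added after seeing the data.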
